A study of Mus musculus with 35 samples.

Results

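Collagens are the main structural proteins of the extracellular matrix, and their genes were measured in induced pluripotent stem (iPS) cell clones, embryonic stem (ES) cells and the cells that the clones came from. Every gene whose name on the array was Col, a number, the letter a and a number was taken, with no use of its measured level. This gave 40 genes read by 78 probes, of 41174 gene probes for 27962 gene names. They comprised 11 fibrillar collagens with 25 probes, 8 basement membrane collagens with 17 probes and 21 other collagens with 36 probes.

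Fibrillar collagens such as types I, III and V assemble into the fibrils of skin, bone and tendon, and types II and XI into those of cartilage. Type IV collagen forms the sheet-like network of basement membranes, and in the early mouse embryo it is laid down in quantity by primitive and parietal endoderm. The remaining collagens decorate fibrils (types IX, XII and XIV), form beaded filaments (type VI) or networks (types VIII and X), anchor epithelia (type VII) or span the cell membrane (types XIII, XVII, XXIII and XXV), and a collagen chain is secreted only after hydroxylation and folding in the endoplasmic reticulum.

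Total RNA of 35 samples was labelled with Cy3 and hybridised to 1-colour mouse oligo microarrays, 1 array per sample. All source cells came from Nanog-reporter mice aged 6 weeks that carry GFP and puromycin resistance under Nanog. PaS cells were bone marrow cells sorted as CD45-, Ter119-, PDGFRa+ and Sca-1+, OP cells (labelled Osteo progenitor cell) were sorted as CD45-, Ter119-, PDGFRa- and Sca-1-, and Tail Tip Fibroblasts (TTF) grew out of tail pieces and were used at passage 3. Each was infected with retroviruses for Oct3/4, Sox2 and Klf4 with c-Myc (4F) or without it (3F), together with DsRed. After puromycin selection, 5 clones that were GFP-positive and DsRed-negative were picked per source and factor set, which gave 6 clone groups named by factor set and source, such as 4F-PaS-iPS for clones from PaS cells made with c-Myc. The ES lines EB-3 and RF 8 and the 3 source cell populations had 1 array each. Every clone array is 1 clone, the clones were kept on mitomycin-C-treated SNL cells, a fibroblast-derived feeder line, and the sources used here do not say whether feeder cells were removed before RNA was taken. In such bulk RNA, fewer cells of a type and less RNA per cell cannot be told apart. The p-values measure only the spread between these clones and, in comparisons of levels between groups, also the difference between EB-3 and RF 8.

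A level is the log2 of a probe's processed intensity minus the log2 of the 75th percentile of its array, so that 0 is that percentile. Between 56.6 and 71.1% of gene probes per array were well above background by the scanner software, and the number of arrays limits the precision. The 30 clones were scanned on 8 slides in 1 session, EB-3 and all 3 source arrays on a slide of another session and RF 8 on a slide of a further one, so clones against ES or source cells cannot be told apart from session. Nanog, a core pluripotency gene, was not well above background in 4F-TTF-iPS #1 (level -6.06), 4F-OP-iPS #1 (-6.13) and 4F-OP-iPS #3 (-8.24), and collagen counts that rest on these 3 clones are given with and without them. None of the 5 pluripotency markers on the array (Pou5f1, Nanog and Sox2 among them) was well above background in a source array. Cartilage markers averaged 2.99 in the OP source array against at most -2.08 in any clone, and bone markers averaged 1.50 there. Blood markers averaged 2.61 in the TTF source array, where 5 of 5 were above background, against at most -3.58 in any clone.

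Of the 78 collagen probes, 52 probes of 34 genes were tested with limma, in 1 fit over 27622 probes, after requiring that all arrays of some group among 7 (the 6 clone groups and ES) be well above background. Among them were 18 fibrillar probes of 10 genes, 11 basement membrane probes of 7 genes and 23 other probes of 17 genes. Where a gene had several probes, as 28 did, the one brightest on average in clones and ES is described. By that probe 24 genes were above background in all 30 clones. By any of their probes, 2 genes, Col10a1 and Col19a1, were above background in no clone, and 7 probes were above background on no array. A call required a 2-fold difference and p under 0.05 after Benjamini-Hochberg adjustment over the 27622 probes.

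Of the collagens, Col4a1 and Col4a2 had the largest differences between the clones and the mean of both ES lines. This gene pair encodes the chains that make up the common type IV collagen of basement membranes. The genes lie head to head on chromosome 8, and their RefSeq start sites on GRCm38.p6 are 21 bases apart. Their promoter windows, 250 bases before to 50 bases after each start, are shown because the levels of this pair moved together in the clones and the windows overlap: capitals mark the 78 bases that both windows hold, read on opposite strands. Col4a1 (chr8:11312777-11313076, minus strand) and Col4a2 (chr8:11312555-11312854, plus strand) read as follows.
Col4a1: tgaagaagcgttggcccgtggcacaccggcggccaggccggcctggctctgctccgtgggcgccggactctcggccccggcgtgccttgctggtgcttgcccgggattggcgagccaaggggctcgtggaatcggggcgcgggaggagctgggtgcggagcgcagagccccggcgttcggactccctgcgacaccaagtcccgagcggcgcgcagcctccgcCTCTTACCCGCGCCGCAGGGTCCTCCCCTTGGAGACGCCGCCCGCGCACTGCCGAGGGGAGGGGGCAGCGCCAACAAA
Col4a2: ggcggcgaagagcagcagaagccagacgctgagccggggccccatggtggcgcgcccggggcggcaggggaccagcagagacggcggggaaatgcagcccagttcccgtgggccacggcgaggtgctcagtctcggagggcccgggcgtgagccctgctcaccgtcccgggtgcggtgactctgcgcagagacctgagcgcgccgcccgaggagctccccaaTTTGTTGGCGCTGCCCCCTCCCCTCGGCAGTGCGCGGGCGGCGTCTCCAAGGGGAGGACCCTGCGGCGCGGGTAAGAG
The letters CCAAT, searched on both strands, occur in both windows, in neither wholly inside the shared stretch. The same letters occur in 37.4% of all 32851 RefSeq promoter windows and in 12 of the 35 windows found for 32 of the 40 collagen genes (34.3%).

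Among basement membrane collagens, Col4a1 and Col4a2 lay above both ES lines and all source arrays in every clone. Col4a1 had a lowest level of 3.47, a median of 5.38 and a highest of 7.34 over the 30 clones, -1.35 in EB-3, 0.74 in RF 8, and 3.03, -1.52 and 0.81 in PaS, OP and TTF source cells. Col4a2 had 3.65, 5.44 and 7.49 over the clones, -1.97 in EB-3, 0.17 in RF 8, and 3.33, 0.50 and 1.21 in the source cells. For each gene 4F-OP-iPS #2 was the highest clone and 3F-OP-iPS #4 the lowest.

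**Figure D1:**
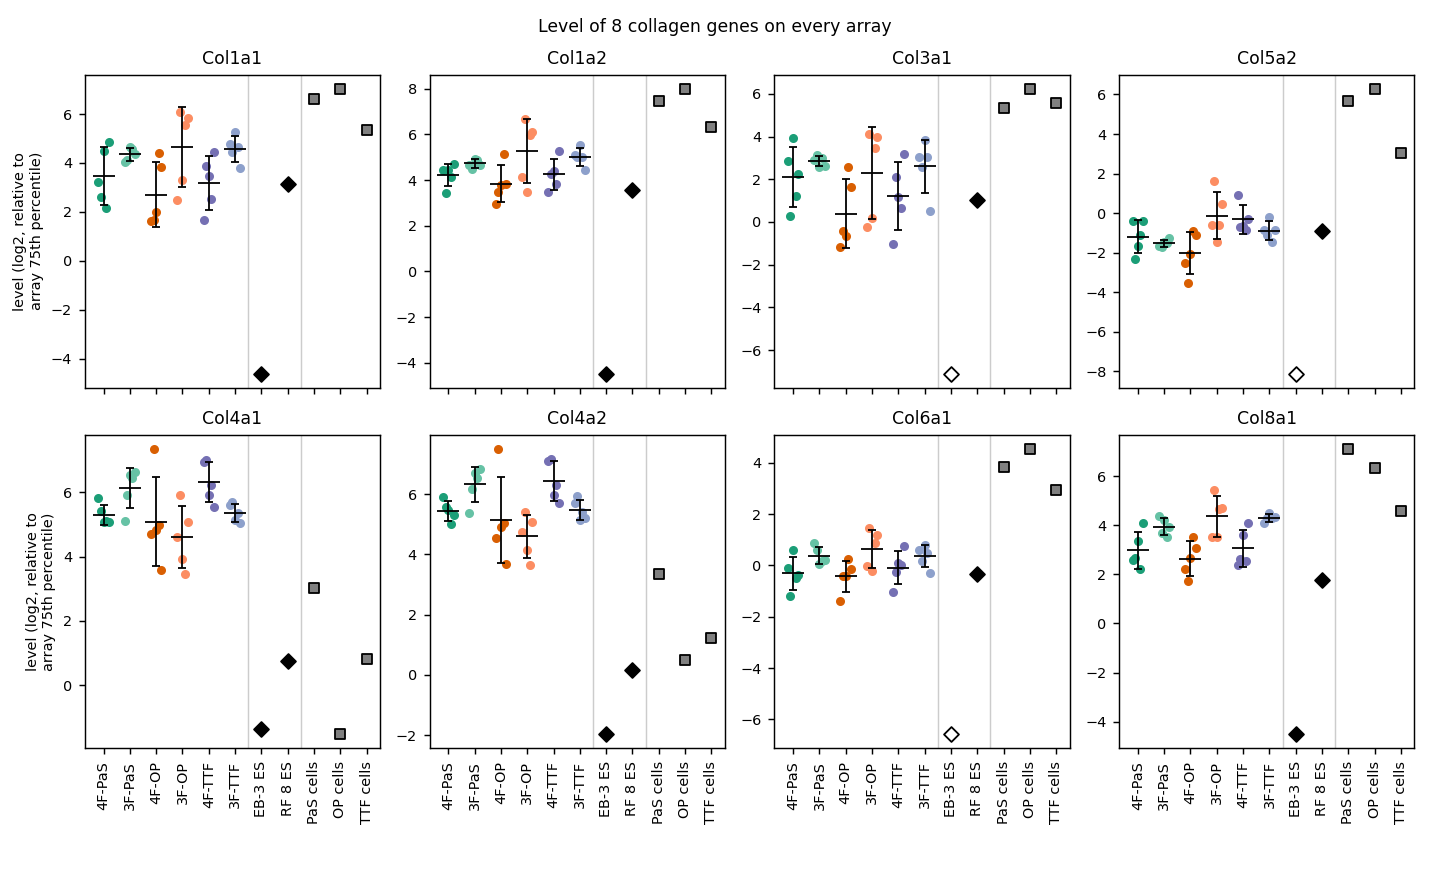
Levels of 8 collagen genes on every array (log2, relative to the array's 75th percentile): coloured points are clones by group with mean and SD (n = 5), diamonds the ES lines EB-3 and RF 8, squares the source cells, and open symbols are not well above background. Col4a1 and Col4a2 are lowest in ES and source cells, whereas for the other 6 genes EB-3 is the lowest array and a source-cell array the highest.

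Over the clone groups the Col4a1 difference from ES was 5.77 on the log2 scale (SE 0.587, limma adjusted p = 1.7e-08), and a second Col4a1 probe differed by 7.05. For Col4a2 it was 6.47 (SE 0.57, adjusted p = 1.8e-09), with 6.72 by a second probe. The clone median of Col4a1 was 106-fold above EB-3 and 24.9-fold above RF 8, and that of Col4a2 170-fold and 38.5-fold. The difference thus held against each ES line singly.

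The array design places the Col4a1 probe at chr8:11167020-11167079 and the Col4a2 probe at chr8:11416851-11416910 (mm7).

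The rest of the basement membrane set did not follow this pattern. Col18a1, the source of endostatin, ranged from 1.79 to 6.30 in the clones with a median of 4.85, and the ES lines lay inside that range at 6.10 (EB-3) and 4.72 (RF 8). Its lowest clone was 4F-OP-iPS #2, the clone highest in Col4a1. Col4a4 had the smallest spread over clones of the 24 genes detected in all of them (SD 0.42), and EB-3 lay above all 30 clones. Col4a3 was above background in 1 clone. Col4a6 was -7.37 in EB-3, where it was not above background, and -1.82 in RF 8, inside the clone range of -7.92 to 0.85. Col4a5 was -8.87 in EB-3, where it was not above background, and -3.85 in RF 8, inside the clone range of -6.61 to -2.65. Its call against ES (1.84, SE 0.784, adjusted p = 0.0497) turned to -0.66 against RF 8 alone. Col15a1, a basement membrane zone collagen, was above background in 17 clones and in neither ES line. The mean of its clone levels was at least 1.78-fold above the mean of the ES lines (adjusted p = 0.011), the signals of single clones overlapped the ES lines, and the call was lost with RF 8 alone (adjusted p = 0.267).

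Genes of primitive and parietal endoderm were also measured beside type IV collagen. The mean level over 8 such markers ran from 0.23 to 3.46 in the clones with a median of 1.89, against -3.87 in EB-3, -2.38 in RF 8, and -3.50, -2.66 and -2.93 in PaS, OP and TTF source cells; 8 of 8 were called higher in the clones than in ES, where 17.2% of all tested probes were. Gata4, Gata6 and Sox17 lay below every clone in all source cells, but not every marker was low there. Thbd was 4.49 in PaS and 3.95 in OP cells, above the highest clone (3.32). Dab2 was 5.03 in TTF, above the highest clone (3.55), and Foxa2 was 1.51 in OP cells. Gata6, an endoderm transcription factor, had 1.20, 3.25 and 5.16 as lowest, median and highest clone, and -2.77 and -2.74 in EB-3 and RF 8. Col4a1 and Gata6 correlated over the 30 clones (Pearson's r = 0.862, Spearman's rho = 0.835, permutation p = 1e-05 for each, the smallest that the resamples can give). Within slides r was 0.928, without the 2 clones farthest from the Col4a1 median it was 0.810, and within the TTF clones alone it was 0.496 (permutation p = 0.15). The part of endoderm cells in the Col4a1 level was not tested.

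Most fibrillar collagens were lower in EB-3 than in every clone, and RF 8 lay within the clone range for several of them. Col1a1, the major chain of type I collagen, had a lowest level of 1.61, a median of 4.07 and a highest of 6.08 in the clones, -4.62 in EB-3, 3.13 in RF 8 and 6.61, 7.03 and 5.36 in PaS, OP and TTF source cells. Every clone lay above EB-3, but 8 clones lay below RF 8. Its probe is placed at chr11:95060800-95060859 (mm7). The clone median was 414-fold above EB-3 and 1.92-fold above RF 8. Col1a2, its partner chain, had 2.94, 4.47 and 6.68 in the clones, -4.48 in EB-3 and 3.56 in RF 8, and the clone median was 496-fold above the former and 1.88-fold above the latter.

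Col3a1, found with type I collagen in skin and vessels, ranged from -1.16 to 4.12 in the clones with a median of 2.59. It was not above background in EB-3, so the clone median was at least 580-fold higher, and it was 1.03 in RF 8. It also had the largest spread over clones of the 24 genes (SD 1.61). Col5a2, a chain that sets fibril width, was likewise not above background in EB-3 (the clone median was at least 48.1-fold higher), whereas RF 8 lay at -0.89, inside the clone range of -3.52 to 1.61. Col5a1, its partner, had 2.14 as clone median, -0.41 in EB-3 and 1.36 in RF 8. Col11a1 and Col11a2, minor chains of cartilage fibrils, had clone medians of -0.16 and -2.69 against -2.98 and -4.48 in EB-3 and -1.50 and -4.29 in RF 8. Col2a1, the main cartilage collagen, did not share the pattern, with -1.21 in EB-3 and -0.19 in RF 8 inside the clone range of -3.06 to 1.35. Col27a1 had -2.35, -0.78 and 0.54 as lowest, median and highest clone and lay below all clones in both ES lines, at -4.88 and -3.98.

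Among the other collagens, type VI chains followed the fibrillar pattern. Col6a1 had -1.38, 0.08 and 1.46 as lowest, median and highest clone and -0.34 in RF 8, and was not above background in EB-3, so the clone median was at least 101-fold higher than there. Col6a3 was at least 88.3-fold higher in the clone median than in EB-3, while RF 8, at -0.74, lay inside the clone range of -1.47 to 1.80. Col8a1, a network collagen of vessels and cornea, had 1.74, 3.57 and 5.42 in the clones, -4.51 in EB-3 and 1.76 in RF 8, with clone medians 270-fold and 3.51-fold above these lines. Col20a1, a fibril-associated collagen, ranged from -3.68 to 1.15 in the clones and was -3.17 in EB-3 and -4.26 in RF 8. Col7a1 ranged from -0.28 to 2.65 in the clones and was -0.38 in EB-3 and 0.79 in RF 8. Col25a1, above background in 26 clones, ranged from -6.35 to -2.79 and was -6.13 in EB-3 and -6.28 in RF 8. Col13a1, a membrane collagen of adhesion sites, ran the other way between the lines: it was 0.89 in EB-3, -2.14 in RF 8 and between -8.24 and 0.90 in the clones. Its 3 lowest clones were the 3 without Nanog signal.

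Probe by probe, 30 of the 52 collagen probes (22 genes) were called higher in the clones than in ES and 0 lower, where 17.2% of all tested probes were called higher and 19.0% lower. By class the calls were 12 of 18 fibrillar, 6 of 11 basement membrane and 12 of 23 other probes. The median difference was 2.01 over the collagen probes and -0.11 over all tested probes. For Col1a1 the difference was 4.57 (SE 1.08, adjusted p = 0.000916), and for Col8a1 4.92 (SE 0.76, adjusted p = 6.96e-06). Either line was also used alone: 31 probes were called higher against EB-3 alone, where 17.9% of all tested probes were, and 12 against RF 8 alone, where 12.5% were. With RF 8 alone the Col1a1 difference was 0.70 and no longer called (adjusted p = 0.647), the Col8a1 difference was 1.79 (adjusted p = 0.0269), Col5a2 turned to -0.12 and Col16a1 to -0.00384.

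**Figure D2:**
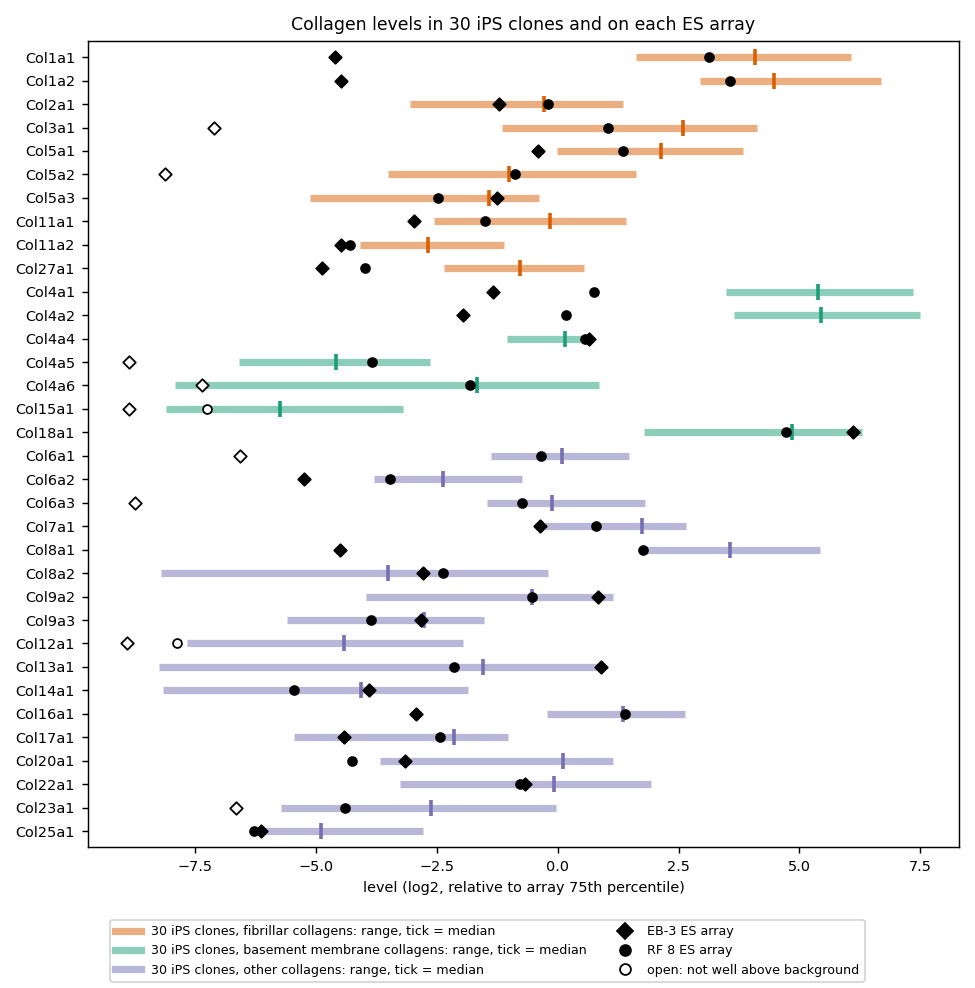
Clone levels and the 2 ES lines for the collagen genes, as log2 relative to the array's 75th percentile; bars run from the lowest to the highest of 30 clones with the median marked, diamonds show EB-3, circles RF 8, and open symbols are not well above background. EB-3 lies below all clones for most fibrillar genes, and both lines lie below all clones for Col4a1 and Col4a2.

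Each ES line was also set against the clones singly. A line was counted below the clones only where all 30 were above background, since dim signals have no order. EB-3 lay below all 30 clones for 24 of 52 collagen probes, among them 11 of 18 fibrillar probes, where 18.0% of all tested probes did so. RF 8 lay below all clones for 9 probes, a share near the 16.5% of all tested probes. Both lines did so for 8 probes, of Col4a1, Col4a2, Col5a1, Col11a2 and Col27a1, against 8.88%. For Col5a1 this held by a dimmer second probe, while by the brighter one described above RF 8 lay above 10 of 30 clones. For Col11a2 it held by the brighter probe only. By a dimmer one, above background in 21 clones, EB-3 (-5.90) and RF 8 (-5.80) lay inside the clone range of -7.80 to -4.49. EB-3 lay above all clones for 1 probe, of Col4a4, against 24.8%, and RF 8 for 0, against 21.7%. EB-3 was at least 4-fold below RF 8 for 17 probes of 14 genes, among them Col1a1, Col1a2, Col3a1, Col4a1, Col4a2 and Col6a1, where 7.49% of all tested probes were, and at least 4-fold above it for 2 probes, both of Col13a1, where 2.7% were. With 1 array per line there is no test of this difference.

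Fibroblast markers were measured beside the fibrillar genes. The mean level over 12 fibroblast markers was -0.78, 0.35 and 2.40 as lowest, median and highest clone, -4.45 in EB-3, where 7 of 12 were above background, and -0.24 in RF 8, where 12 were; 8 of 12 were called higher in clones than in ES, where 17.2% of all tested probes were. Pdgfrb (1.37), Lum (3.46), Fbn1 (0.38) and Meox1 (-2.19) were not called. Dcn, a collagen-binding proteoglycan of fibroblasts, was -6.83 in EB-3, 1.93 in RF 8 and between 2.41 and 4.74 in the clones. Of the remaining lists, 2 of 5 cartilage markers (Sox9 and Matn1), 2 of 3 bone markers (Runx2 and Bglap1), 2 of 3 epidermis markers (Krt5 and Krt14), 1 of 4 endothelium markers (Cdh5) and 1 of 2 blood markers (Cd68) were also called higher in clones than in ES, while the bone marker Sp7 (-1.03) and the pluripotency marker Zfp42 (-5.34) were called lower. The part of these cell types and of fibroblasts, including feeder cells, in these collagen levels was not tested.

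Between clones of different sources, few collagen probes were called. PaS-iPS against OP-iPS gave 1 called probe of 52, against 1.6% of all tested probes. It read Col23a1, a membrane collagen: PaS-iPS clones ran from -4.17 to -0.04 and OP-iPS clones from -5.72 to -1.66, so the groups overlapped. The difference was 1.73 (SE 0.476, adjusted p = 0.0407), and 2 further Col23a1 probes were not called at 1.55 and 1.39; the call was lost with slide or clone number as a block and without the 3 clones lacking Nanog signal. It was also lost (count 0) without any 1 of 4F-PaS-iPS #1, #3 and #5, 3F-PaS-iPS #2, #3, #4 and #5, 4F-OP-iPS #1, #3 and #5, or 3F-OP-iPS #1 and #3, and without 3F-PaS-iPS #1 Col23a1 was lost and Col4a1 called in its place. The count was 3 without 4F-PaS-iPS #2, 4 without 4F-OP-iPS #4 and 2 without 3F-OP-iPS #2. The share of all tested probes called is not given for these fits, so their counts cannot be set against the whole array. PaS-iPS against TTF-iPS gave 0 called collagen probes by limma (0.5% of all tested probes; 8 had an unadjusted p under 0.05), and OP-iPS against TTF-iPS gave 0 (0.0217%; 10 under 0.05). Without 4F-OP-iPS #2, the clone highest in Col4a1, the PaS-iPS against OP-iPS count was 7 and the OP-iPS against TTF-iPS count 5, where 4.59 and 1.05% of all tested probes were called, with Col4a1 and Col4a2 in both lists.

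The comparison of 3F with 4F clones asked how collagen levels differ with c-Myc left out. Col9a3, Col12a1 and Col20a1 were called higher in 3F clones of both OP-iPS and TTF-iPS. Col9a2 was called in OP-iPS and not in TTF-iPS (1.09, adjusted p = 0.239), Col22a1 in TTF-iPS and not in OP-iPS (0.31, adjusted p = 0.816), and Col14a1 in neither (1.98, adjusted p = 0.158, and 1.30, adjusted p = 0.363). In OP-iPS, 8 probes of 7 genes were called higher in 3F than in 4F clones and 0 lower, where 3.94% of all tested probes were higher and 0.576% lower. In TTF-iPS it was 6 probes of 5 genes and 0, where 3.97% were higher and 1.81% lower. In PaS-iPS it was 0 by limma, where 0.0181% were called and 4 collagen probes had an unadjusted p under 0.05. No slide held both 3F and 4F clones of 1 source. With slide as a random block, 0 collagen probes were called in OP-iPS and 0 in TTF-iPS, where 0.608 and 0.0253% of all tested probes were. Without the 3 clones lacking Nanog signal, 0 were called in OP-iPS and 4 in TTF-iPS, where 0.608 and 3.59% were. The calls described next are those of the fit without the slide and with all clones.

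Marker lists of other cell types also differed between 3F and 4F clones. The mean level over 5 cartilage markers ran from -3.81 to -3.18 in 4F-TTF-iPS and from -2.42 to -2.23 in 3F-TTF-iPS, without overlap, and from -4.31 to -2.28 and from -3.46 to -2.08 in OP-iPS, where the groups overlapped. Of these markers Matn1, a cartilage matrix protein, was called higher in 3F clones of OP-iPS (3.07, adjusted p = 0.000209) and TTF-iPS (3.40, adjusted p = 0.00013), and Comp was called in TTF-iPS (1.61, adjusted p = 0.0297). The mean over 5 bone markers ran from -4.76 to -4.29 in 4F-OP-iPS and from -4.22 to -3.85 in 3F-OP-iPS. In TTF-iPS it ran from -4.56 to -4.27 and from -4.03 to -3.44, without overlap in either source. Of these markers Ibsp and Dmp1 were above background in no clone and Sp7 in 3 clones. The lack of overlap thus rests in part on dim signals, which have no order. Of 3 bone markers tested, Bglap1 (osteocalcin) was called higher in 3F clones of OP-iPS (1.83, adjusted p = 0.00666) and of TTF-iPS (1.71, adjusted p = 0.00722). Runx2 (0.50 and 0.45) and Sp7 (-0.39 and -0.70) were called in neither. In OP-iPS the median of the fibroblast marker mean was -0.26 in 4F and 1.72 in 3F clones, with 1 of 12 markers called (Acta2), and that of the pluripotency marker mean was -2.65 and 2.54, with 1 of 5 called (Zfp42). The part of these cell types in the collagen differences was not tested.

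Col20a1 in TTF-iPS was -3.68, -2.73, -2.15, -2.75 and -2.66 in the 4F clones and 0.81, 0.04, -0.70, 1.08 and 0.55 in the 3F clones. Every 3F clone lay above every 4F clone, and the difference was 3.15 (SE 0.501, adjusted p = 0.000609). In OP-iPS the same gene was -2.11, 0.55, -1.97, -2.28 and -2.03 in the 4F clones and 0.10, 0.87, 0.31, 0.12 and 0.24 in the 3F clones, so that only 4F-OP-iPS #2 overlapped the 3F clones (1.90, SE 0.501, adjusted p = 0.021). In PaS-iPS its difference of 1.63 was not called (adjusted p = 0.143).

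Col9a3, a chain of the type IX collagen that coats cartilage fibrils, was -5.61, -4.20, -4.98, -3.52 and -3.70 in 4F-OP-iPS and -2.92, -2.14, -2.35, -1.78 and -2.13 in 3F-OP-iPS. The groups did not overlap (2.14, SE 0.496, adjusted p = 0.0108). In TTF-iPS it was -5.51, -4.12, -3.99, -3.59 and -2.87 in 4F and -1.80, -1.97, -2.34, -1.63 and -2.04 in 3F clones, again without overlap (2.06, SE 0.496, adjusted p = 0.0101). Col9a2, another type IX chain, was higher in 3F than in 4F clones of OP-iPS by 2.02 (SE 0.585, adjusted p = 0.0322) and differed by -1.53 in PaS-iPS, where it was not called (adjusted p = 0.189), and the test of the difference between these changes gave -3.56 (SE 0.827, adjusted p = 0.0421). The same test gave -2.63 for PaS-iPS minus TTF-iPS (adjusted p = 0.0996) and 0.93 for OP-iPS minus TTF-iPS (adjusted p = 0.99986).

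Col12a1, which links fibrils to other matrix, was called in both, at 2.62 in OP-iPS and 2.48 in TTF-iPS. It was above background in 22 of the 30 clones, so dim signals may enter these differences. Col11a1 (1.64), Col11a2 (1.28) and Col5a1 (1.63) were called in OP-iPS. In TTF-iPS, Col22a1, a collagen of tissue junctions, was called by both probes (2.54 and 2.39), and Col15a1, above background in no 4F-TTF-iPS clone, was at least 2.36-fold higher in 3F clones. Type I and IV collagens were not called with all arrays in the fit: Col1a1 differed by 1.96 in OP-iPS (SE 0.935, adjusted p = 0.193) and by 1.39 in TTF-iPS (adjusted p = 0.363), and Col4a1 by -0.49 and -0.96 (adjusted p = 0.601 and 0.234). With 1 ES array in the fit, Col1a2 (1.44, adjusted p = 0.046) and a second Col1a1 probe (2.25, adjusted p = 0.0476) were called in OP-iPS. Other Col1a1 probes than the one described were called in OP-iPS without 4F-OP-iPS #4 (2.31, adjusted p = 0.0334) or without 3F-OP-iPS #1 (2.86 and 2.59, adjusted p = 0.0445 and 0.0126). In TTF-iPS a Col1a1 call appeared without 4F-TTF-iPS #5 or without 3F-OP-iPS #1. In PaS-iPS Col4a1 differed by 0.83 (adjusted p = 0.403), and the test of the difference between its changes in PaS-iPS and TTF-iPS gave 1.79 (adjusted p = 0.175).

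**Figure D3:**
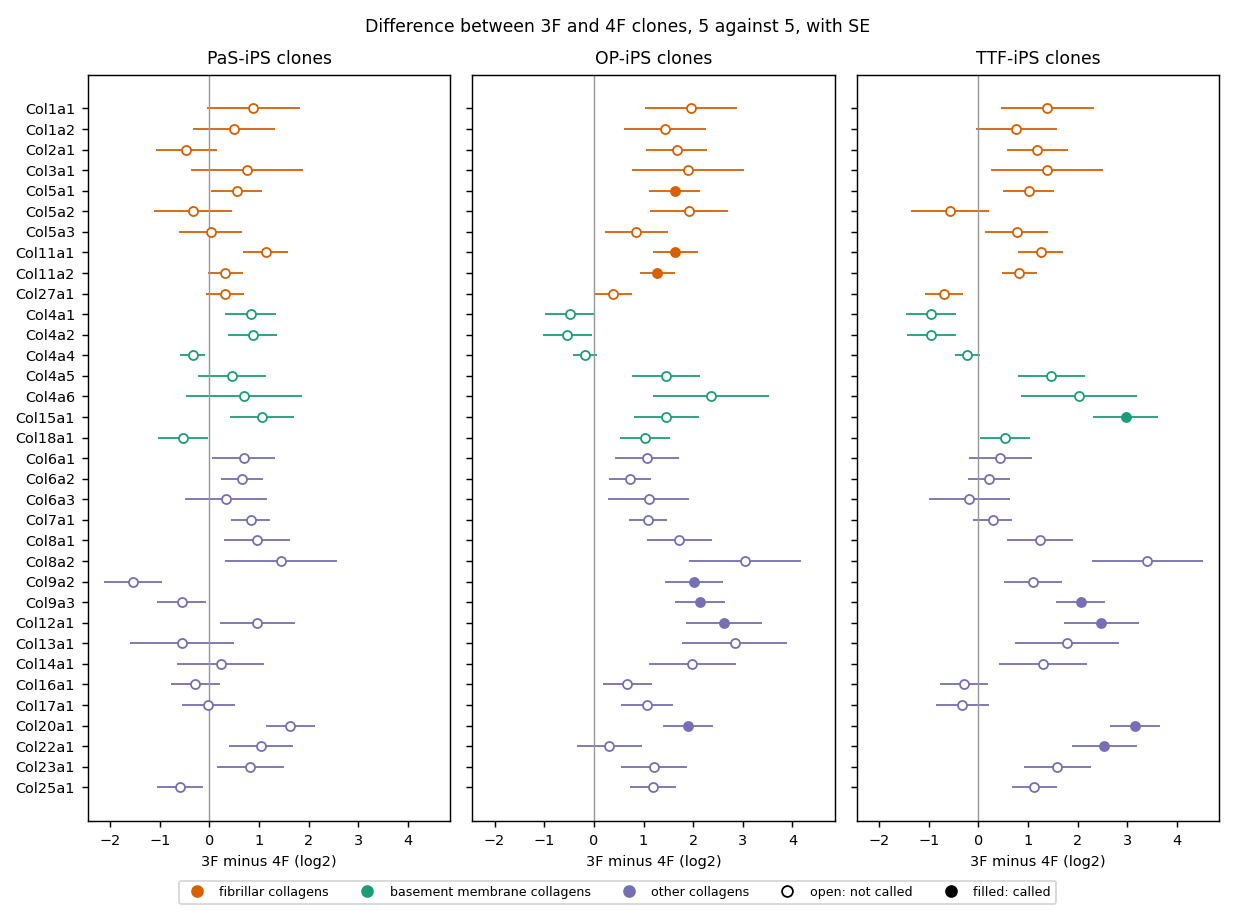
Difference between 3F and 4F clones (log2) for the collagen genes in PaS-iPS, OP-iPS and TTF-iPS, with the SE of the fit and called probes filled. Most differences lie above 0 in OP-iPS, where the median over the 52 tested probes was 1.20, whereas Col4a1 and Col4a2 lie below 0 there and in TTF-iPS and above 0 in PaS-iPS.

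The median difference over the 52 collagen probes was 1.20 in OP-iPS, 1.11 in TTF-iPS and 0.52 in PaS-iPS, against 0.02, 0.04 and 0.00 over all tested probes, and 47, 40 and 39 of 52 lay above 0. By leaving out 1 clone at a time, the OP-iPS count ran from 1 (without 4F-OP-iPS #1 or #3, where 1.65 and 2.4% of all tested probes were called) to 15 (without 3F-OP-iPS #1, where 6.89% were), and it was 5 without 4F-OP-iPS #2, 13 without 4F-OP-iPS #4, 2 without 3F-OP-iPS #2 or #5 and 3 without 3F-OP-iPS #4. The TTF-iPS count was 3 without 4F-TTF-iPS #1. Those leave-one-out counts that have no share of all tested probes beside them cannot be set against the whole array. With quantile normalization the share of higher among all called probes fell from 87.2 to 67.2% in OP-iPS and from 68.7 to 51.9% in TTF-iPS, and the 5 and 7 collagen calls were all higher, where 2.64 and 3.29% of all tested probes were. With 1 ES array in the fit, so that the difference between the ES lines no longer entered the shared spread, the counts were 14 and 9 for either line, where 4.66 and 4.39% of all tested probes were higher.

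The source cells, with 1 array each and no test, were set against the mean of their own 10 clones and called past 4-fold where they also lay outside the range of those clones, with the higher side above background. Col3a1, Col5a2, Col16a1 and the type VI genes Col6a1, Col6a2 and Col6a3 were past 4-fold higher in each of the 3 arrays, and Col4a1, Col4a2 and Col22a1 past 4-fold lower. PaS cells had 21 probes of 13 genes higher and 15 probes of 9 genes lower, where 4.43 and 6.61% of all probes were. OP cells had 33 probes of 22 genes higher and 9 of 6 lower, where 5.05 and 5.79% were. TTF had 11 of 9 higher and 10 of 7 lower, where 5.66 and 6.87% were. No basement membrane probe was past 4-fold higher in any of the 3 arrays.

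**Figure D4:**
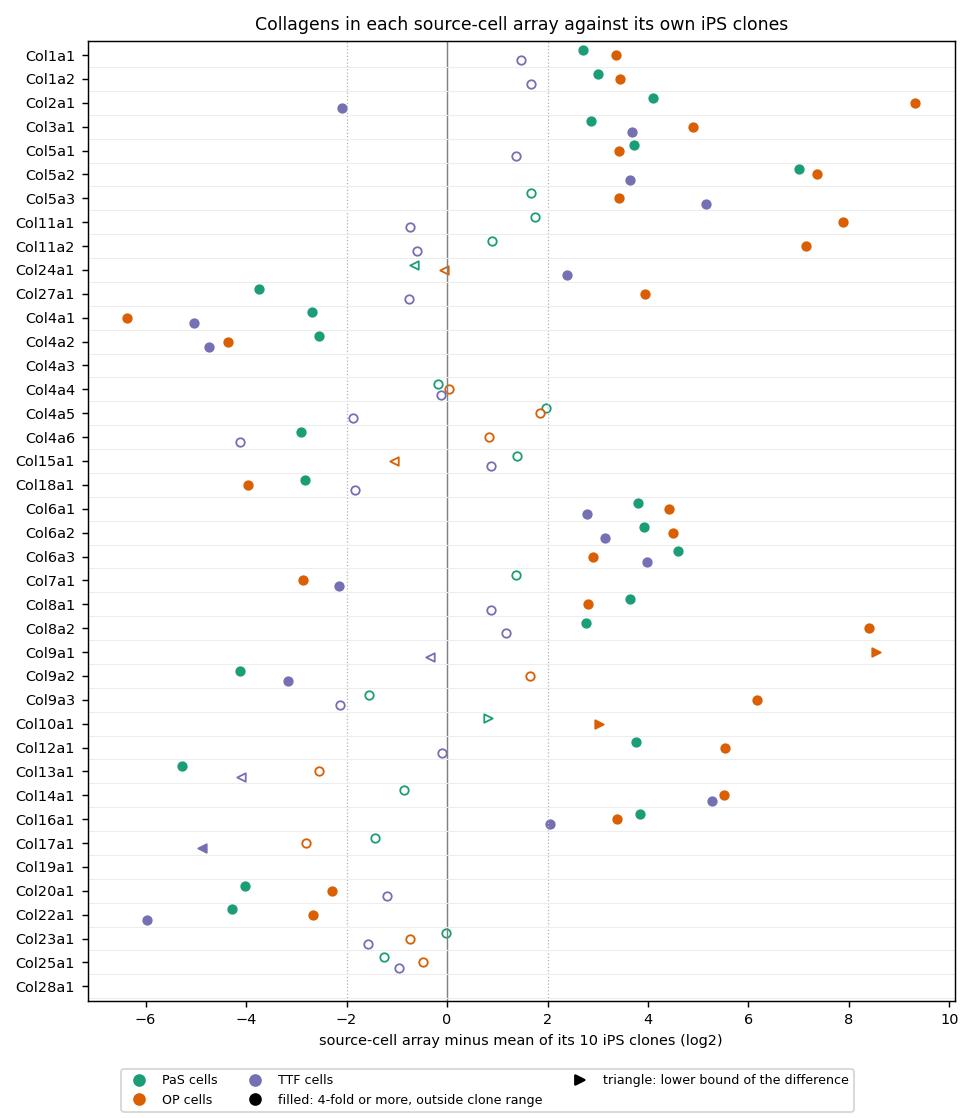
Level in each source-cell array minus the mean of its own 10 clones (log2) by gene; filled symbols are at least 4-fold and outside the clone range, and triangles are lower bounds where one side is not above background. OP cells reach 9.32 for Col2a1, and Col4a1 and Col4a2 lie below 0 in all 3 sources.

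In OP cells Col2a1 was 8.47 against a mean of -0.85 in OP-iPS clones, which is 638-fold higher. Col9a1, a type IX chain, was at least 373-fold higher, Col11a1 236-fold, Col5a2 165-fold, Col11a2 142-fold and Col9a3 72.2-fold higher. Col8a2, a network collagen, was 338-fold higher, with 8 of 10 clones above background and dim clones set to the lowest signal above background on their array, so that the fold is a lower limit. Col10a1, the collagen of hypertrophic cartilage, was at least 8.15-fold higher, and Col9a2 was 3.13-fold higher, not past 4-fold. All 11 fibrillar genes had a probe past 4-fold higher in OP cells, 20 of 25 probes in all. Cartilage and bone markers were high in the same array, as given above, and their part in the collagen levels was not tested.

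With dim clones at that lowest signal, the largest increases in PaS cells were Col5a2 (5.65 against -1.35, 128-fold), Col6a3 (24.1-fold), Col2a1 (17.2-fold) and Col6a2 (15.2-fold), and the largest decreases were Col13a1 (38.7-fold), Col22a1 (19.4-fold), Col9a2 (17.3-fold) and Col20a1 (16.2-fold). In TTF they were Col14a1 (38.6-fold, a lower limit with 8 of 10 clones above background), Col5a3 (35.4-fold), Col6a3 (15.8-fold) and Col3a1 (12.8-fold), against lower levels of Col22a1 (63.0-fold), Col4a1 (32.7-fold), Col17a1 (at least 29.4-fold) and Col4a2 (26.8-fold). Col4a1 was also 6.43-fold lower in PaS cells and 82.5-fold lower in OP cells than in their clones.

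Genes for making, folding, cleaving and cross-linking collagen and for its receptors and uptake were measured from a list of 40 genes, of which 34 were on the array and 32 were tested. Of these, 25 were called higher in the clones than in ES and 1, Pcolce2, lower, where 17.2 and 19.0% of all tested probes were, with a median difference of 2.17. The receptor and uptake genes Ddr1, Ddr2, Mrc2 and Itga11 were among the genes called higher. Serpinh1, the collagen chaperone, had 5.83, 6.82 and 7.89 as lowest, median and highest clone and 2.24 and 4.87 in EB-3 and RF 8. Lox, which cross-links collagen, was -8.74 in EB-3, -2.60 in RF 8 and -3.78, -1.45 and 1.11 as lowest, median and highest clone, so RF 8 but not EB-3 lay inside the clone range. Among 3F and 4F clones, 3 were called higher in 3F-OP-iPS (the cross-linking enzyme Loxl1 and the integrin chains Itga1 and Itga11) and 1 in 3F-TTF-iPS (Itga11), where 3.94 and 3.97% of all tested probes were, and 0 were called in the other 4 comparisons.

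Collagen chains that share a molecule or fibril varied together over the clones, among 8 pairs examined. Pearson's r was 0.986 for Col4a1 and Col4a2, 0.930 for Col6a1 and Col6a2, 0.907 for Col1a1 and Col3a1 and 0.905 for Col1a1 and Col1a2, with Spearman's rho of 0.961, 0.926, 0.868 and 0.911, each with an adjusted permutation p of 1.6e-05. Within the 10 PaS clones Col1a1 and Col3a1 had r = 0.71 and rho = 0.273 (permutation p = 0.023 and 0.45). Col5a1 and Col5a2 were looser (r = 0.497, rho = 0.364, adjusted permutation p = 0.006), with r = -0.534 within the 10 TTF clones. Col1a1 and the fibroblast marker Thy1 had r = 0.664 and rho = 0.596 (adjusted permutation p = 6.7e-05), and within the PaS clones r was 0.064. Col1a1 and Nanog, in the 27 clones with Nanog signal, had r = 0.365 and rho = 0.200 (permutation p = 0.062), which did not pass the threshold. Of the first 4 pairs the lowest r within slides was 0.881, and without the 2 clones farthest from the median it was 0.883.

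**Figure D5:**
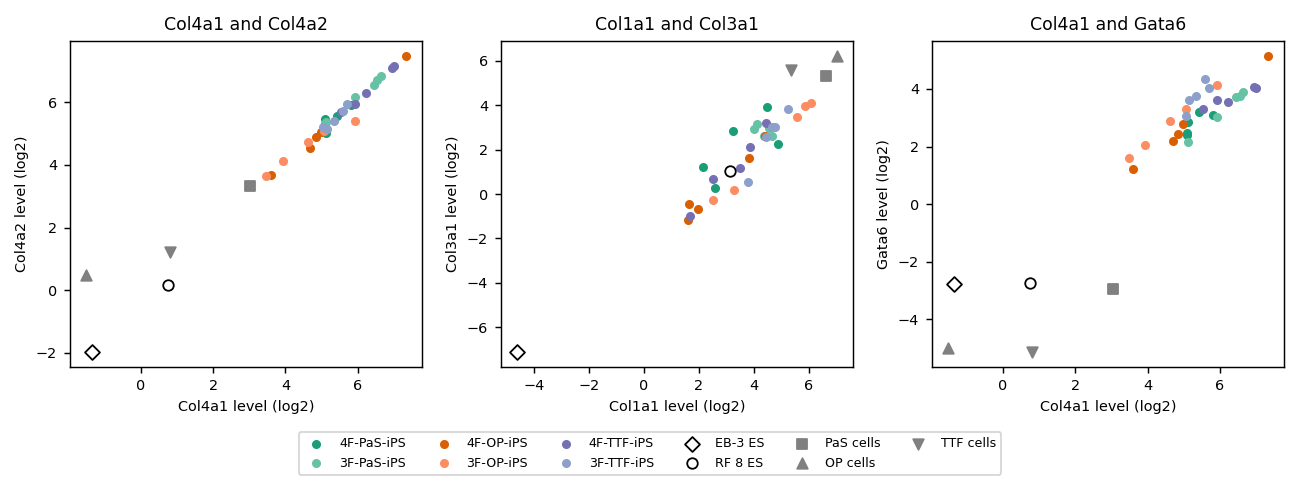
Pairs of genes over the clones, each point 1 clone by group, with levels as log2 relative to the array's 75th percentile, open symbols for the ES lines and grey symbols for the source cells. Over the clones r was 0.986 for Col4a1 with Col4a2, 0.907 for Col1a1 with Col3a1 and 0.862 for Col4a1 with Gata6, and the ES and source arrays lie below all clones in Gata6.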

How the data were processed

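Per the labels, 35 arrays were hybridised with Cy3-labelled total RNA and scanned; the authors deposited the scanner files, from which the processed signal (intensity) was taken, and a table of log2 values that was used as an alternative. Outlier-flagged spots were left out, spots of 1 probe were averaged, and log2 intensity minus the array's 75th percentile was fitted with limma 3.58.1 (R 4.3.3) with 7 groups, the 30 clones and 2 ES arrays sharing 1 spread estimate, after keeping probes well above background on every array of a group. Relations and counts used Python 3.11.15, numpy 2.4.6, pandas 2.3.3 and scipy 1.17.1. On simulated data the fit recovered 70 to 93% of 200 probes changed by log2 2, with 2 to 8 false calls. Source arrays (1 each) were not tested. Alternatives were quantile normalization, normexp, no filter, slide and clone number as blocks, other probes, each ES line alone and leaving out each clone. Clone numbers do not pair samples: of 75 same-number pairs 16 had a correlation over 0.1 (median r = -0.00067). Genes were named where called, where listed as members of interest, or, in source cells, where among the 4 largest. Members and lists were chosen with earlier results of these data known. Proteins were not used here.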

Additional observations from a re-analysis of the deposited data

Results flagged for a closer look

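Of 174 groups of 5 clones examined for a value far from the other 4, 10 collagen values stood out, and chance gives about 1 in 20 groups. They were Col4a4 in 3F-OP-iPS #1 (-0.64, others 0.11 to 0.19), Col4a5 in the same clone (-4.52, others -3.73 to -3.53), Col6a3 in 3F-PaS-iPS #1 (1.34, others -0.32 to -0.10), Col11a2 in 3F-TTF-iPS #1 (-1.12, others -2.39 to -2.21), Col14a1 in 3F-PaS-iPS #2 (-2.58, others -3.60 to -3.48) and Col18a1 in 3F-TTF-iPS #5 (5.46, others 4.80 to 4.93). The remainder were Col20a1 in 4F-OP-iPS #2 (0.55, others -2.28 to -1.97) and in 3F-OP-iPS #2 (0.87, others 0.10 to 0.31), Col25a1 in 3F-TTF-iPS #2 (-2.92, others -4.74 to -4.37) and Col27a1 in 4F-TTF-iPS #5 (-1.07, others 0.09 to 0.54). The change of Col9a2 from 4F to 3F differed between PaS-iPS and OP-iPS by -3.56 (limma adjusted p = 0.0421).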

How the results depend on the processing

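Clones against ES gave 30 called probes, where 17.2% of all tested probes were called higher. Normexp background correction gave 19, where 8.89% were higher, and RF 8 alone gave 12, where 12.5% were. With RF 8 alone Col4a5 turned to -0.66, Col5a2 to -0.12 and Col16a1 to -0.00384. Leaving out 1 clone gave 28 to 32. PaS-iPS against OP-iPS gave 1, where 1.6% of all tested probes were called. It gave 0 without the filter on dim probes (0.891% of the probes tested) and with slide as a block (0.996%). It also gave 0 with the replicate block (1.73%) and without the 3 clones low in Nanog and Sox2 (0.0543%). Leaving out 1 clone gave 0 to 7. For OP-iPS against TTF-iPS leaving out 1 clone gave 0 to 5, the 5 without 4F-OP-iPS #2, and for 3F against 4F in PaS-iPS 0 to 1, the 1 (Col20a1) without 4F-PaS-iPS #3. For 3F against 4F in OP-iPS, 8 calls became 5 with quantile normalization and 2 with normexp. Over all tested probes, higher calls went from 3.94% to 2.64 and 0.825%. Slide as a random block gave 0 and leaving out the 3 clones gave 0, where 0.608% of all tested probes were called in each. When 1 clone was left out, the count was 1 to 15. In TTF-iPS, 6 became 3 with normexp, where higher calls over all tested probes went from 3.97 to 1.03%. Slide as a random block gave 0, where 0.0253% of all tested probes were called. When 1 clone was left out, the count was 3 to 9. Shares of all tested probes are given above for only some of the leave-one-out fits. The replicate block kept 7 of 8 calls in OP-iPS, 5 of 6 in TTF-iPS and 28 of 30 against ES. The Col5a1 with Col5a2 correlation was -0.534 within the TTF clones. Why these values moved was not tested. Signal over background limits Col10a1, Col12a1, Col15a1 and Col19a1, and 1 array per ES line and source leaves their spread unknown.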
